A study of Mus musculus with 4 samples.

Results

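Cluster 1 neutrophils are the cells to which the authors gave cluster number 1 and the class neutrophil in single-cell RNA-seq tables of immune cells from mouse mammary tumours. The rule found 1420 such cells among 17211 in all, 1260 of 4232 cells from tumours given control plasmid and 160 of 12979 from tumours given a plasmid for interleukin 12 (IL-12). Each plasmid was injected into the tumours and followed by electroporation, and live cells carrying CD45, the surface protein of leukocytes, were sorted. A treatment is represented by 1 pool of 3 mice and 1 library, read from the 5′ ends of transcripts. The labels disagree on the tumours: the design text calls them triple-negative, the tables' own library names hold 4T1, a transplantable mammary carcinoma, and the growth protocol has HER2 switched on in the mammary tissue of mice aged 1 month. Both groups share whichever model it was, and the labels give no untreated tumour.

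A treatment has 1 library, so differences between treatments have no replicates behind them and nothing was tested. The genes measured here also made the clusters, so every difference between clusters is a description. Brackets give exact 95% intervals from numbers of cells or of unique molecular identifiers (UMIs, 1 per captured transcript), and these cover counting error only, not the spread between mice or preparations. Levels are UMIs summed over the cells of a cluster per 1000000 UMIs of those cells (CPM).

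Neutrophils are short-lived phagocytes that are made in the bone marrow, where successive stages fill their azurophil, specific and gelatinase granules, and leave it as mature cells. In tissue they follow chemokines and formylated peptides through surface receptors and secrete chemokines and IL-1 that draw in further leukocytes. Stefins are small inhibitors of cysteine proteases, and the mouse genome carries a group of stefin A and cystatin-like genes that mature neutrophils transcribe strongly.

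Before any result, the barcodes and marker transcripts of the cells were examined. The libraries shared 87 cell barcodes, and all 87 carried the same cluster number in both tables, while 33 of 87 carried the same class. Among the members, 5 control and 6 IL-12 cells had a barcode found in the other library, including the deepest member of each library, at 15929 and 10335 UMIs. Without shared barcodes the share of cluster 1 among neutrophils was 47.1% in control and 2.63% in IL-12, against 46.3% and 2.71% with them. Values without these cells are given for Ngp, Ltf, Cxcl1, Saa3 and Cxcl10 beside their results. Ciart, Hspa1a, Plcxd2 and Aup1, with 1 to 3 UMIs each in IL-12 members, also moved by over 1.5 times there. Doublets were not called here, and the sources used here do not say how the authors treated them. No member had a recorded T cell clonotype in either library. All 10 genes of a neutrophil marker list were detected in both libraries, and every member had a UMI of the list. The list summed to 119290 CPM in control members and 105766 in IL-12 members, against 7467 and 9281 in cells not called neutrophils. In control members S100a8 and S100a9 gave 143755 and 201883 of 3122229 UMIs, most of that sum. Because members were selected by the authors' neutrophil class, this contrast was set largely by the selection and is no separate check of identity.

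The 5 genes taken as markers of cluster 1 were Cstdc4, Cstdc5, Stfa2 and Stfa2l1, all stefin A or cystatin-like genes, and Cxcr2, the receptor for the neutrophil chemokines CXCL1, CXCL2 and CXCL3. Together they summed to 14355 CPM in control members and 13709 in IL-12 members, against 623 and 806 in cells not called neutrophils. The selection by class bears on this contrast as well. The 4 stefin-type genes lie within a single stretch of chromosome 16 in the GRCm38.p6 assembly. Stfa2l1 (36156811 to 36161948) and Cstdc4 (36184212 to 36188111) are on the plus strand, and Cstdc5 (36359382 to 36367570) and Stfa2 (36403946 to 36408363) on the minus strand. Cxcr2 lies on chromosome 1 (74153994 to 74161246, plus strand). The promoters of the 4 clustered genes are shown because their transcripts were found together in the same members. Each sequence is from RefSeq, GRCm38.p6, and runs 5′ to 3′ in the direction of the gene from 250 bases before its start to 50 after it; capitals mark a run of 13 bases that all 4 share.
Cstdc4 (chr16:36183962-36184261, plus strand): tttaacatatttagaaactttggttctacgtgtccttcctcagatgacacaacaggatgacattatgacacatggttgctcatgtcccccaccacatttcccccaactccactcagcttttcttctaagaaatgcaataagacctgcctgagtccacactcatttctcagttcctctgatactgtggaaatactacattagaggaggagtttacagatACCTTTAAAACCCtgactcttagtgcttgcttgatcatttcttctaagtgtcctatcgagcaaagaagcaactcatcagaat
Cstdc5 (chr16:36367521-36367820, minus strand): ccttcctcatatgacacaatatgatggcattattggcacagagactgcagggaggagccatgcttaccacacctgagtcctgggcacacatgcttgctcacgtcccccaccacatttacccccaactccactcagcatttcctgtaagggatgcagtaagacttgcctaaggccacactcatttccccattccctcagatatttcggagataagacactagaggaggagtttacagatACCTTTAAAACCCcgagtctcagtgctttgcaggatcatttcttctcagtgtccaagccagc
Stfa2 (chr16:36408314-36408613, minus strand): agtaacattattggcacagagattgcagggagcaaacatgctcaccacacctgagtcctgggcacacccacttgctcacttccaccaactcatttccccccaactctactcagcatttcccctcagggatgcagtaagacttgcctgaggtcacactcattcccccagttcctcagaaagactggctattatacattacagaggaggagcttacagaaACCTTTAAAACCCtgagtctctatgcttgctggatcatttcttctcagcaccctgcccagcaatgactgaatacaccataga
Stfa2l1 (chr16:36156561-36156860, plus strand): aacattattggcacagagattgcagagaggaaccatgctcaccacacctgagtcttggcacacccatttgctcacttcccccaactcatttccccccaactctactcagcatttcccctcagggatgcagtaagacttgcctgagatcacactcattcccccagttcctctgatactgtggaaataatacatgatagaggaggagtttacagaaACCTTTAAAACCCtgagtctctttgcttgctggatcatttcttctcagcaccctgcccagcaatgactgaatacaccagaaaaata

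The run ACCTTTAAAACCC was the first of 2 runs of this length common to the 4 promoters; the second is not marked. Searched on both strands, it was present in 9 of 32851 RefSeq promoters of the same length, or 0.0274%, and all 9 belonged to stefin or cystatin-like genes or an unnamed gene model on chromosome 16. Its last base lies 20 bases before the annotated start in Cstdc4 and Stfa2 and 24 before it in Stfa2l1, and it reaches the annotated start base of Cstdc5. The promoters of Stfa2 and Stfa2l1 were identical at 90.5% of aligned positions, and the other pairs at 67.8% to 73.1%. The transcripts are alike too: of their 60-base stretches, 19.6% for Cstdc5, 16.9% for Stfa2l1, 10.2% for Stfa2 and 8.75% for Cstdc4 also occur in another annotated gene, against 2.63% for Cxcr2. Reads from these genes may therefore be split between them, and single values are uncertain.

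The markers did not set cluster 1 apart from every other neutrophil cluster. Cstdc5 stood at 3745 CPM in control cluster 1 and at 12670 in control cluster 14, the cluster highest in the granule genes Ngp and Ltf. In the control library cluster 14 was above cluster 1 for each of the 4 stefin-type genes, and cluster 1 was second of the 5 clusters with at least 50 cells. Cstdc4 was 5612 CPM in cluster 1 and 8090 in cluster 14, Stfa2 was 2087 and 5492, and Stfa2l1 was 2234 and 3016. In the IL-12 library cluster 1 had the highest level of Cstdc4 (6725 CPM) and Stfa2l1 (2747 CPM), and was second to cluster 14 for Cstdc5 (2760 against 7861) and Stfa2 (1126 against 2671). Cxcr2 was highest in cluster 4 in control, at 1011 CPM against 676 in cluster 1, and cluster 1 ranked 3 of 5 in IL-12 at 350.8 CPM. Against the summed other neutrophils of its own library, control cluster 1 had 1.20 times their Cstdc4, 1.26 times their Stfa2l1 and 1.02 times their Cxcr2, but 0.748 times their Cstdc5 and 0.845 times their Stfa2. IL-12 cluster 1 had 1.57, 1.53, 1.24, 1.42 and 1.55 times the level of those genes. By summed level the stefin-type genes were higher in control cluster 1 than in clusters 2, 4 and 7. By share of cells, with cells thinned to 1000 UMIs, cluster 1 stayed above clusters 2 and 4 for all 4 genes but lay close to cluster 7. Cstdc4 was seen in 65.0% of control cluster 1 (62.2 to 67.7) and 70.3% of cluster 7 (64.2 to 75.9), the reverse order with overlapping intervals. Cstdc5 was seen in 46.1% and 45.0%, Stfa2 in 35.0% and 34.1%, and Stfa2l1 in 53.2% and 49.8%. All 5 markers had a UMI in 19.6% of control members, 23.3% of cluster 4, 36.1% of cluster 7 and 52.4% of cluster 14, without thinning. Median UMIs per cell were 2344, 2877, 5484 and 6051 in the same order, so these joint shares are not compared at equal depth. The markers thus do not define these cells alone, which are called cluster 1 here.

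**Figure D1:**
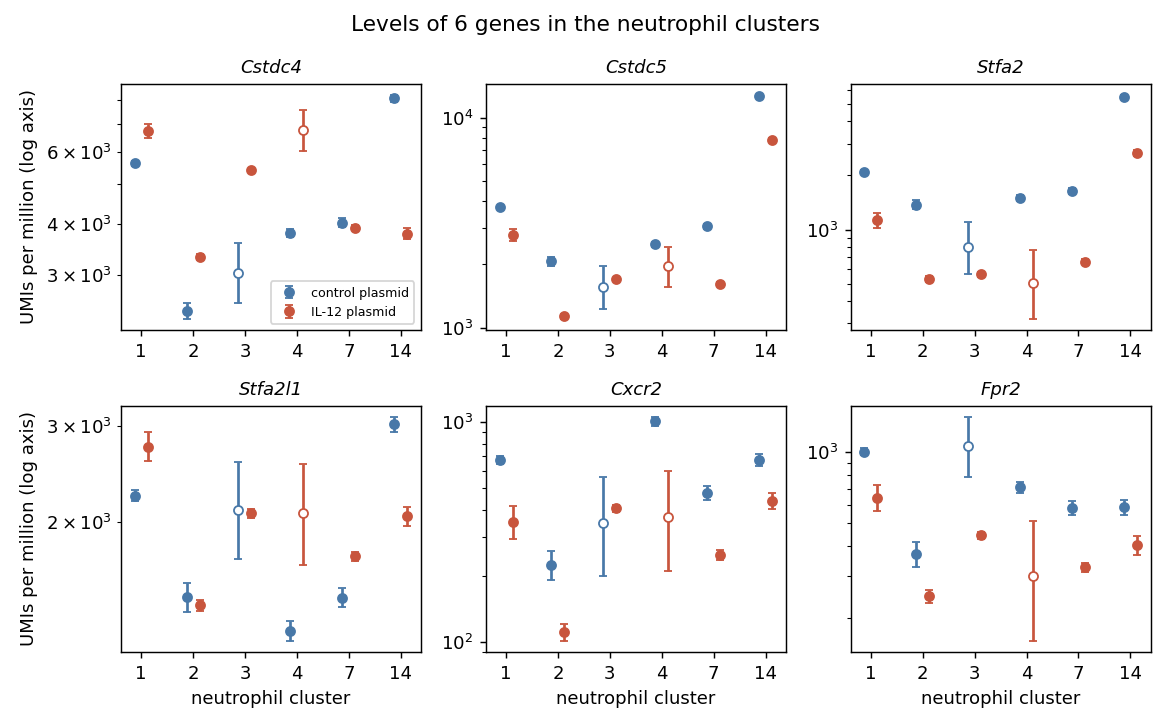
Levels of the 5 marker genes and of Fpr2 in UMIs per 1000000 (log axis) in each neutrophil cluster, blue for the control and red for the IL-12 library; bars are exact 95% counting intervals, and open circles mark clusters with 21 (control cluster 3) and 16 (IL-12 cluster 4) cells. Cluster 14 lies above cluster 1 for the 4 stefin-type genes in control, and Fpr2 is higher in cluster 1 (1004 and 642 CPM) than in the other filled points of its library.

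Cluster 1 made up 46.3% (44.4 to 48.2) of the 2721 control neutrophils and 2.71% (2.31 to 3.15) of the 5908 IL-12 neutrophils. Over all sorted cells its share was 29.8% (28.4 to 31.2) and 1.23% (1.05 to 1.44). Of the cells of the cluster, 88.7% (87.0 to 90.3) came from the control library although that library held fewer neutrophils. Cluster 4 lay the same way, with 550 control and 16 IL-12 cells, and cluster 3 the other way, with 21 control and 2606 IL-12 cells. Of the 21 control cells of cluster 3, 9 had a shared barcode. Clusters 2, 7 and 14 held more than 100 cells in each library. Since 1 library gave each share, a cluster mostly of 1 library may reflect that library as well as a state of the cells. Clusters made here from the recovered UMIs of all neutrophils put 75.8% of the members into a single cluster of 2328 cells, which held 73.0% of control and 5.77% of IL-12 neutrophils. Members made up 46.2% of that cluster, so it did not set cluster 1 apart from the other neutrophils.

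**Figure D2:**
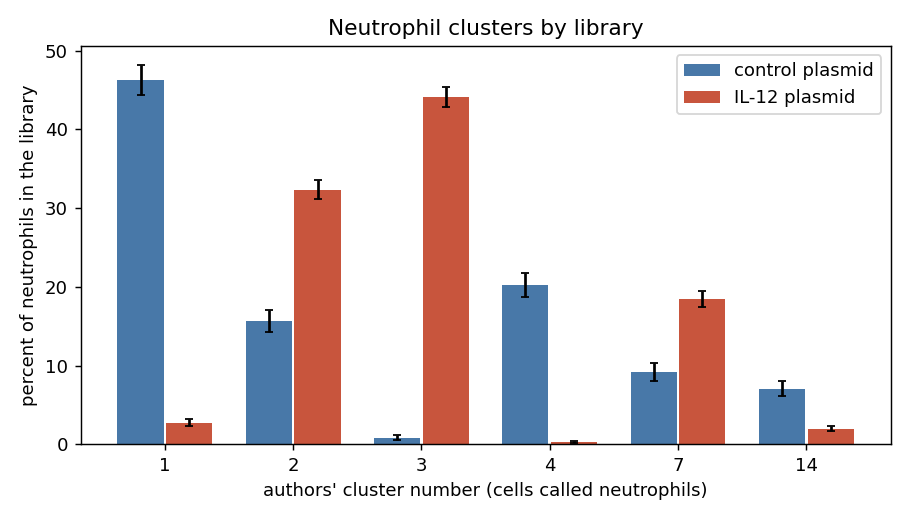
Share of each authors' cluster among the neutrophils of a library, in percent, for the control (blue) and IL-12 (red) libraries, with exact 95% binomial intervals. Cluster 1 stands at 46.3% of control and 2.71% of IL-12 neutrophils and cluster 3 stands at 0.772% and 44.1%.

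The members were shallower than clusters 7 and 14, with a median of 2344 UMIs in control (663 to 15929) and 1997.5 in IL-12 (769 to 10335). A median of 651 and 579.5 genes was seen per member, and mitochondrial transcripts took a median of 1.07% and 1.06% of UMIs. In the same libraries cluster 7 had medians of 5484 and 5195 UMIs and cluster 14 medians of 6051 and 9334. The 1260 control members together held 3122229 UMIs and the 160 IL-12 members 367727, so low transcripts are measured far less precisely in the IL-12 members.

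In control tumours, cluster 1 differed from the other neutrophils more by what it lacked than by what it held. A gene was taken as measured when the groups compared held at least 50 UMIs of it together and when 5% or more of either group's cells had one, and was counted as different past 1.5-fold, with 1 CPM added to each level. In control 105 of 3547 measured genes were higher in cluster 1 (2.96%) and 454 lower (12.8%), with a median log2 ratio of -0.09. In the IL-12 library 712 of 3060 were higher (23.3%) and 352 lower (11.5%), with a median of 0.16. The neutrophils compared with cluster 1 were not the same in both: by UMIs they were 32.9% cluster 4, 28.4% cluster 7, 23.8% cluster 14 and 14.04% cluster 2 in control, and 35.1% cluster 3, 34.1% cluster 7, 24.0% cluster 2 and 6.57% cluster 14 in IL-12. In both libraries at once, 30 of 2886 genes were higher (1.04%) and 106 lower (3.67%).

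Genes that were higher in both libraries included the receptor gene Fpr2 and the genes of the secreted proteins Saa3 and Ccl9. Fpr2, a receptor for formylated peptides and serum amyloid A, stood at 1004 CPM in control members and 598.5 in the other control neutrophils, 1.68-fold higher (1.60 to 1.76). In IL-12 it was 642 against 353.9 CPM, 1.81-fold higher (1.59 to 2.07), and cluster 1 had the highest level of the 5 clusters in both libraries. Of the 60-base stretches of Fpr2 26.5% occur in another gene, so part of its count may be that of a relative. Saa3, a serum amyloid A made by activated myeloid cells, was 1714 against 870.8 CPM in control (1.97-fold) and 913.7 against 306 in IL-12 (2.99-fold). Cluster 2 had slightly more Saa3 than cluster 1 in control, at 1733 CPM, and 5 cells held 71.4% of the IL-12 members' UMIs of this gene. Ccl9, a CC chemokine, was 1.90-fold and 2.71-fold higher, and 5 of the IL-12 members held 83.3% of its UMIs. Control cluster 2 had slightly more Ccl9 than cluster 1, at 72.8 against 70.8 CPM.

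Regulators of inflammatory signalling were also among them. Nr4a3, an orphan nuclear receptor induced early after stimulation, was 267.1 against 167.4 CPM in control (1.60-fold, 1.45 to 1.76) and 301.9 against 161.3 in IL-12 (1.87-fold, 1.53 to 2.26), highest in cluster 1 in both libraries. Tnip1, which restrains NF-kB signalling, was 1.71-fold and 1.70-fold higher. Ikbke, a kinase of the antiviral pathway, was 1.97-fold and 2.54-fold higher, the latter from 17 UMIs. Mt1, a metallothionein that binds zinc and copper, was 1.71-fold and 1.75-fold higher, with cluster 7 above cluster 1 in both libraries. A single IL-12 member held 53.6% of the 97 Mt1 UMIs, and without it Mt1 was at 123.6 CPM, below the 150.6 of the other IL-12 neutrophils. Car4, a membrane carbonic anhydrase, was 1.83-fold and 2.27-fold higher, the latter within 1.5-fold without the member that held 34.5% of its 29 UMIs. The remaining genes of this rank were H4c8, Mllt6, Apbb3, Ptgs2os2, Gfod1, Stip1 and Nkg7, each between 1.59-fold and 2.40-fold higher, with 9 to 37 UMIs in the IL-12 members. The interval of Apbb3 in IL-12 (0.876 to 3.75) included no difference, and Mllt6 and Nkg7 were within 1.5-fold in IL-12 without the member that held the most of their UMIs. Over the named genes past 1.5-fold in IL-12, 11 of 59 came within it when that member was left out, Stfa2 and Stfa2l1 among them, and 1 of 47 in control, Cxcl1.

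Several transcripts of immature neutrophils were lower in cluster 1 than in the summed other neutrophils, of which cluster 14 held the most. Ngp, a specific granule protein made during maturation in the marrow, was 315.2 CPM in control members against 2684 in the other control neutrophils, 8.52-fold lower (7.98 to 9.09), and 78.9 against 1557 in IL-12, 19.7-fold lower (13.7 to 29.5). A single control member held 523 of the 984 Ngp UMIs, and without shared barcodes Ngp was 18.4-fold lower in control. Ltf, lactoferrin of the specific granules, was 4.38-fold lower in control and 11.1-fold lower in IL-12, and 1 control member held 142 of its 242 UMIs; without shared barcodes it was 10.7-fold lower in control. Ifitm6, of a family of interferon-induced membrane proteins, was 6.90-fold and 3.64-fold lower. These 3 genes were highest in cluster 14 in both libraries, where Ngp reached 8119 and 22171 CPM. Cluster 1 was not the lowest throughout: Ngp stood at 304.3 CPM in control cluster 2 and at 58.4 and 51.7 in IL-12 clusters 2 and 3, Ltf was lower in IL-12 cluster 3, and Ifitm6 was lower in IL-12 cluster 2.

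The other genes ranked lowest in both libraries had their highest level in cluster 2. Hspa1a, an inducible heat shock protein, was 15.3-fold lower in control (11.1 to 21.7) and 8.38-fold lower in IL-12 (2.86 to 40.7, from 3 UMIs), and 57.8% of its 60-base stretches occur in another gene. Fos, an immediate early transcription factor, was 3.60-fold lower in control and 3.02-fold in IL-12. Hmox1, which degrades haem, was 108.3 against 322.8 CPM in control (2.98-fold lower) and 291 against 848.9 in IL-12 (2.92-fold lower). Ciart, a repressor of the circadian clock, Plcxd2 and Snx8 were lower by 3.21-fold to 13.05-fold in control, and had 1 to 3 UMIs each in the IL-12 members. Of these 6 genes, cluster 14 was below cluster 1 in both libraries for Hmox1, Fos, Ciart, Plcxd2 and Snx8, and in IL-12 for Hspa1a.

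**Figure D3:**
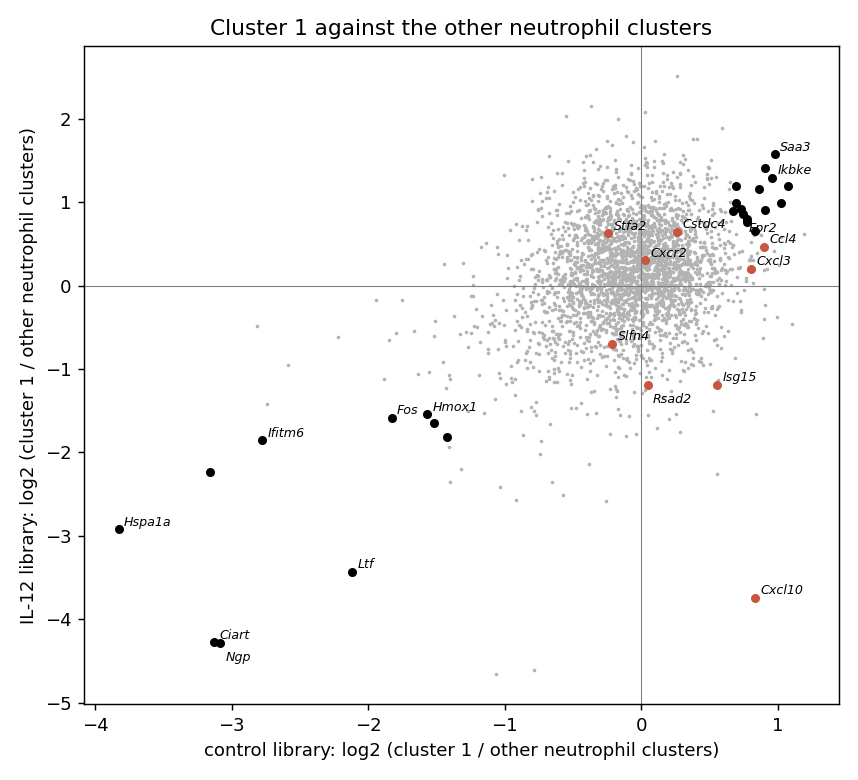
Log2 ratio of cluster 1 to the summed other neutrophil clusters for each of 2886 genes measured in both libraries, control on the x axis and IL-12 on the y axis. Black points are the genes ranked highest or lowest in both libraries and red points other genes named in the text; Ngp and Ltf lie low on both axes, while Isg15, Rsad2 and Cxcl10 lie low on the IL-12 axis and not on the control axis.

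Taken one at a time, the other clusters differed from cluster 1 in different genes. Against cluster 4 in control, 8.81% of 3484 measured genes were higher in cluster 1 and 32% lower. Higher were Ccl9 (70.8 against 14.7 CPM), Mt1 (515 against 128.3) and Hcst, an adaptor of activating receptors (243.1 against 66.7), and lower were Padi4, which citrullinates histones (6.13-fold), and Vcl, which anchors actin at adhesions (10.2-fold). Against control cluster 2, 16.8% of 2959 genes were higher and 25.5% lower. Spp1 was 1288 against 254.1 CPM, Cxcl3 was 6629 against 1675, and Adora3, an adenosine receptor, 33.0 against 2.65, while the heat shock gene Hspa1b was 58.3 against 1527. Against control cluster 7, 2.57% of 4009 genes were higher and 11.9% lower, the smallest summed share of the comparisons with single clusters. The higher ones included Cd3g and Gzma, which lymphocytes transcribe (24.3 against 5.89 and 39.4 against 15.04 CPM) and which were spread thinly over 73 and 107 members, and the lower ones Mmp12, a macrophage elastase, and C1qa, a complement gene of macrophages.

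Cluster 14 had the largest such share in control, with 44.1% of 3508 genes higher in cluster 1 and 9.75% lower. Cluster 1 had 37.7 times its Cxcl1, 18.1 times its Ccrl2, a chemerin-binding receptor, and 13.9 times its Ptgs2, the inducible cyclooxygenase. It had 25.8-fold less Ngp, 18.0-fold less Camp, the antimicrobial cathelicidin, and 16.6-fold less Ly6g. In IL-12 43.8% of 1792 genes were higher against cluster 14 and 17.7% lower, with Cxcl1 71.7-fold and Ptgs2 35.2-fold higher and Ngp 281-fold lower. Of the 262 Cxcl1 UMIs of IL-12 members, 33.2% lay in 1 cell. Against IL-12 cluster 3, which holds the largest part of that library's neutrophils, 30.1% of 2825 genes were higher in cluster 1 and 7.22% lower. Cxcl10 was lower, at 10.9 against 169.4 CPM, and Cmpk2, an interferon-induced kinase, was 4.26-fold lower. Against IL-12 cluster 2, 31.4% of 2871 genes were higher and 19.3% lower, with Mmp9 418.8 against 83.5 CPM. Against IL-12 cluster 7, 18.1% of 4003 genes were higher and 18.8% lower. Serpinb2, an inhibitor of plasminogen activators, was 141.4 CPM in IL-12 cluster 1 and 11.5 to 21.5 in clusters 2, 3 and 7, but its 52 UMIs came from 8 members and 1 of them held 44.2%. Gzmb, Ctsw and Klrc1, transcripts of cytotoxic lymphocytes, were also among the genes higher than in cluster 7. Whether lymphocyte RNA or doublets contribute to these values was not tested.

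By gene group, counts of lower members in control stand beside 12.8% of all measured genes, and those in IL-12 beside 23.3% higher and 11.5% lower. Of 10 measured specific granule genes 7 were lower (median log2 ratio -0.75), among them Ltf, Ngp, Lcn2, which binds siderophores, and Chil3, a chitinase-like protein. In IL-12 3 of 9 were lower (median -0.45), namely Ltf, Ngp and Olfm4. Of the gelatinase and secretory granule genes 4 of 12 were lower in control, where Fpr2 alone was higher, while in IL-12 5 of 11 were higher, namely Mmp9, Mmp25, Itgam, Fpr1 and Fpr2, and 1 lower. Azurophil granule genes, made at the earliest stage, were mostly too low to measure, and of 3 measured in control Lyz2 and Serpinb1a were lower. In IL-12 1 of 2 was higher and 1 lower. Of 9 heat shock genes 5 were lower in control (median -1.01) and 1 in IL-12, where 1 was higher. Of 18 immediate early genes 5 were lower in control and 6 in IL-12, where 1 was higher. Of 21 genes of glycolysis and hypoxia 7 were lower in control (median -0.44), Ldha, lactate dehydrogenase A, and Vegfa, a blood vessel growth factor, among them. In IL-12 4 of 21 were higher and 2 lower.

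Against the summed other neutrophils, secreted mediators lay the other way in control, where 2.96% of all measured genes were higher. That reference includes cluster 14, without which 60 genes in place of 105 were higher. Of 9 measured neutrophil chemokines and growth factors 5 were higher (median log2 ratio 0.79) and none lower. These were Cxcl1 and Cxcl3, which act on CXCR2, and Ccl3, Ccl4 and Ccl9, which act on CC receptors. The Cxcl1 call was lost without the member that held 20.3% of its 1101 UMIs, and 5 members held 50.7% of the Ccl9 UMIs. Ccl3 was 4196 CPM in control members against 2138 in the other control neutrophils (1.96-fold), and Ccl4 was 3928 against 2107 (1.86-fold). Cxcl3 was 6629 against 3807 CPM (1.74-fold). In IL-12, where 23.3% of all genes were higher, Ccl9 alone of 9 was higher and Csf3 was lower. Of 9 genes of the IL-1 family and its inhibitors, Il1a, Il1b and the receptor antagonist Il1rn were higher in control, Il1b at 7644 against 4867 CPM (1.57-fold), and none were lower. In IL-12 Il1b was 10666 against 9291 CPM, within 1.5-fold, and of 10 genes Il1rap was higher and Il18 lower. Of 17 survival and cell death genes the anti-apoptotic Bcl2a1a, Bcl2a1b and Bcl2a1d were higher in control and 1 lower. In IL-12 Bcl2a1b was the one of 17 that was higher, and 2 were lower.

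The type I interferon response, made of genes that are switched on by interferon-alpha and interferon-beta, was lower in IL-12 cluster 1 than in the summed other neutrophils of that library, but not lower than in cluster 14. In IL-12 17 of 20 measured genes were lower and none higher (median log2 ratio -0.92), against 11.5% lower of all genes. In control 1 of 18 was lower and none higher (median 0.16). Isg15, a ubiquitin-like protein, was 2393 CPM in IL-12 members against 5446 in the other IL-12 neutrophils, 2.28-fold lower, while in control it was 2426 against 1649. Rsad2, the antiviral enzyme viperin, was 2.29-fold lower in IL-12 at 465 against 1063 CPM, and in control it stood at 408.4 and 395.5. Summed over the 24 genes of the list, IL-12 cluster 1 had 6045 CPM (5797 to 6302), cluster 2 had 10562, cluster 7 had 12228, cluster 3 had 14220 and cluster 14 had 4504. Control cluster 1 had 6090 CPM (6004 to 6177), within the interval of the IL-12 members. MHC class I genes had 4 of 15 lower and 2 higher in IL-12, and none of 13 either way in control.

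Counts for the remaining lists follow in the same order, control (2.96% of all genes higher, 12.8% lower) and then IL-12 (23.3% higher, 11.5% lower), and many lay near these shares. Stefin and cystatin-like genes had 2 of 9 lower in control, Stfa3 and Cstdc6, and 4 of 9 higher in IL-12. Chemoattractant and growth factor receptors had 1 of 14 higher in control and 4 of 13 higher with 1 lower in IL-12. The adhesion list had 1 of 13 lower in control, and 1 of 11 higher with 1 lower in IL-12. The maturation list had 3 of 18 lower in control, namely Ly6g, Retnlg and Ifitm6, and 4 of 17 lower in IL-12. Ly6g, the surface marker of mouse granulocytes, was 23.1 CPM in control members against 143.6 (6.23-fold lower). The S100 list had 1 of 5 lower in control and none in IL-12. The TNF and NF-kB list had 2 higher and 1 lower of 15 in control, and 2 higher and 2 lower of 15 in IL-12. The interferon-gamma list had 2 higher and 1 lower of 17 in control, and 1 higher and 2 lower of 21 in IL-12.

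Of the genes ascribed to suppressor myeloid cells, 1 was higher and 3 lower of 17 in control, the latter being Arg1, Nos2 and Vegfa, and 3 of 18 were higher in IL-12. Those ascribed to tumour-associated neutrophils had 2 higher and 2 lower of 14 in control and 1 of 13 lower in IL-12. NADPH oxidase genes, which make the oxidative burst, had Cybb lower of 7 in control and none in IL-12. The extracellular trap list had Padi4 lower of 5 in control and Hmgb1 higher of 4 in IL-12. The lipid mediator list had 1 of 6 lower in control and 2 of 5 higher in IL-12. The lectin and Fc receptor list had 1 higher and 3 lower of 19 in each library. The iron and haem list had 4 of 7 lower in control, and 1 higher and 2 lower of 7 in IL-12. In the proliferation list 4 genes were measured, none of them different in control and 1 of them higher in IL-12.

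Between treatments, cluster 1 members of the IL-12 library had more Tnf, Ccl3, Ccl4 and Spp1 and less Cxcr2, Cxcl3, Chil3 and Cxcl10 than those of the control library. Of 3001 measured genes 367 were higher in IL-12 (12.2%) and 628 lower (20.9%), with a median log2 ratio of -0.14. With that median set to 0 the calls were 504 higher and 449 lower, so 36.9% of the calls were higher in the first case and 52.9% in the second. In the other clusters with at least 50 cells in both libraries, the medians of the same ratio were -0.38 in cluster 2, -0.32 in cluster 7 and -0.21 in cluster 14. The 160 IL-12 members decide how low a gene could be seen, and the counts below name genes with as few as 1 UMI there. In counts simulated with counting error only at these members' UMI totals, 10.5% of unchanged genes lay past 1.5-fold in either direction. Of genes set to a 2-fold change, 84.8% were called the right way. Part of the calls between libraries can therefore be counting error.

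Among inflammatory mediators, Tnf, the gene of tumour necrosis factor, was 198.9 CPM in control and 927.3 in IL-12 members, 4.66-fold higher (4.07 to 5.33). Its UMIs were concentrated: 5 of the 160 IL-12 members held 60.7% of 341, and without the member of each library that held the most it was 4.15-fold higher. At 1000 UMIs per cell, 10.1% of control and 19.6% of IL-12 members had a Tnf UMI (17.1% and 26.9% unthinned). Its log2 ratio was 2.22 here, 1.84 in cluster 2, 1.38 in cluster 7 and 2.35 in cluster 14. Ccl3 was 4196 and 9047 CPM (2.16-fold higher) and Ccl4 was 3928 and 11506 (2.93-fold higher). The 5 IL-12 members with the most held 36.5% of the UMIs of Ccl3 and 48.6% of those of Ccl4, against 8.23% and 13.1% in control. Both were also higher in clusters 2 and 7, and within 1.5-fold in cluster 14 (log2 ratios 0.17 and 0.22). Spp1, osteopontin, was 1288 and 4623 CPM (3.59-fold higher, 3.39 to 3.80). Cxcl1 was 2.02-fold higher, but 1 cell held 33.2% of the IL-12 UMIs, and without shared barcodes its log2 ratio was 0.54 in place of 1.01. Il1b was 7644 and 10666 CPM, 1.40 times as high.

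Some of the largest ratios rested on few cells. Gzmb, the protease granzyme B of cytotoxic lymphocytes, was 7.99-fold higher, but 1 IL-12 member held 67.1% of its 79 UMIs. Areg, a ligand of the EGF receptor, was 5.53-fold higher with 69.8% of 116 UMIs in 1 member, and Rgs1, a regulator of G protein signalling, 5.29-fold higher with 35.3% of 119 UMIs in 1. Their log2 ratios were 0.20, 0.46 and 0.24 in cluster 2. Without the member of each library that held the most, the folds were 2.86, 2.30 and 4.06. Ccl8, a CC chemokine, was 3.82-fold higher with 48.1% of 27 UMIs in 1 member, and 2.34-fold without it and the top control member. For Ly6c2, an antigen of monocytes (4.39-fold), and Cd69, an activation marker (4.15-fold), 5 members held 64.5% and 69.6% of 31 and 23 UMIs. Counting intervals do not cover such concentration. The others ranked highest were Gbp4, an interferon-induced GTPase (6.43-fold), Plau, the urokinase protease (5.35-fold, 3.95 to 7.20), and Tpt1-ps6, H3f3c and Atp6v0c-ps2. Of the 60-base stretches of the last 3, 46.1%, 64.8% and 85.2% occur in other genes, so their counts are uncertain.

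At the low end, Chil3 was counted 496 times in control and 5 times in IL-12 members, or 158.9 and 13.6 CPM, 11.7-fold lower in IL-12 (4.97 to 36.1). It was lower in cluster 2 (log2 ratio -4.25), cluster 7 (-4.95) and cluster 14 (-1.22) as well; 21.2% of its 60-base stretches occur in another gene. Cxcl10, the interferon-induced ligand of the receptor CXCR3, was counted 286 times in control and 4 times in IL-12 members, 8.42-fold lower (3.25 to 31.1). The log2 ratio of Cxcl10 was -2.96 in cluster 1, against 2.34 in cluster 2, 0.87 in cluster 7 and 3.10 in cluster 14. It was -2.90 without shared barcodes. The remaining low genes, Exosc4, Btg3, Rab3gap1, Zdhhc5, Aup1, Spint2, Uba7, Esrra, Cep83 and Sdha, were counted 77 to 168 times in control and 1 to 4 times in IL-12 members.

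Genes of the neutrophil marker list were mostly lower. Of the 10 neutrophil markers 6 were lower and 1, Ly6g, was higher, beside 20.9% and 12.2% of all genes. Cxcr2 was 676 and 350.8 CPM (1.93-fold lower, 1.61 to 2.32), and its log2 ratio of -0.95 stood beside -1.01 in cluster 2 and -0.93 in cluster 7. Mmp9, the gelatinase, was 1.73-fold lower (1.46 to 2.04), Csf3r, the G-CSF receptor, 1.72-fold lower, and Il1r2, the IL-1 decoy receptor, 1.94-fold lower. Saa3 was lower by 0.91 on the log2 scale here, and by more without shared barcodes (-1.26). S100a8 and S100a9, the calprotectin subunits, were within 1.5-fold. Of the cluster 1 markers, Stfa2 was 1.85-fold lower (1.68 to 2.05), Cstdc5 stood at 3745 and 2760 CPM, and Cstdc4 and Stfa2l1 at 1.20 and 1.23 times the control level.

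**Figure D4:**
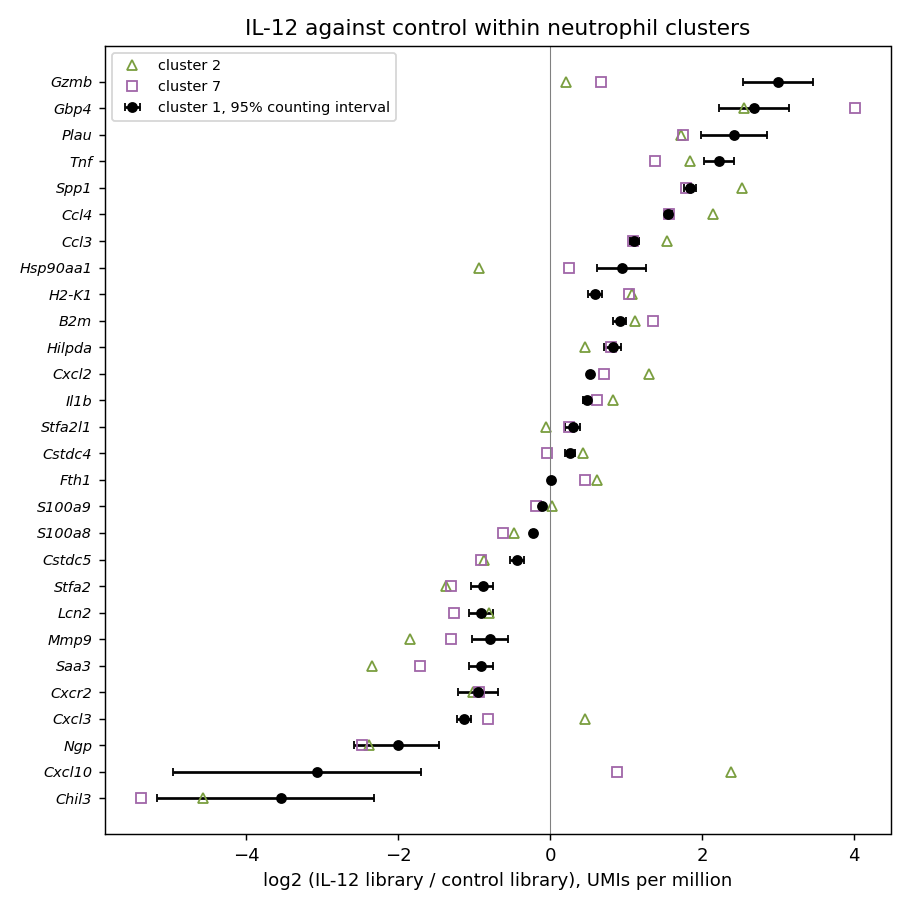
Log2 ratio of IL-12 to control levels (UMIs per 1000000) within cluster 1 for 28 genes (black, with exact 95% counting intervals) and the same ratio in cluster 2 (green triangles) and cluster 7 (purple squares). Cxcl10 lies at the low end in cluster 1 and above 0 in clusters 2 and 7, while Tnf, Ccl3, Ccl4 and Spp1 lie above 0 in all 3.

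Interferon response genes were close to the control level in the IL-12 members. Of 17 measured genes of the type I list 1 was higher (Ifit1) and 2 were lower (Oas3 and Slfn4), with a median log2 ratio of 0.08. In cluster 2 12 of 20 were higher (median 0.90), beside 8.61% of all genes, in cluster 7 18 of 23 (median 1.12), beside 9.61%, and in cluster 14 11 of 15 (median 1.16), beside 14.4%. None was lower in those 3 clusters, where 38.8%, 33% and 30.9% of all genes were. Isg15 was 2426 CPM in control and 2393 in IL-12 members, and its log2 ratio was 1.19 in cluster 2 and 1.21 in cluster 7. Of the interferon-gamma list 1 of 18 was higher (Gbp4) and 3 lower in cluster 1, against 7 of 18, 10 of 24 and 9 of 16 higher and 2 lower each in clusters 2, 7 and 14. MHC class I genes had 4 of 14 higher and none lower in cluster 1. B2m, the shared light chain, was 1986 and 3745 CPM (1.89-fold higher) and H2-K1, a classical heavy chain, 1.50-fold higher, a call lost without the member of each library that held the most of its UMIs. The difference between clusters in these ratios was not tested.

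**Figure D5:**
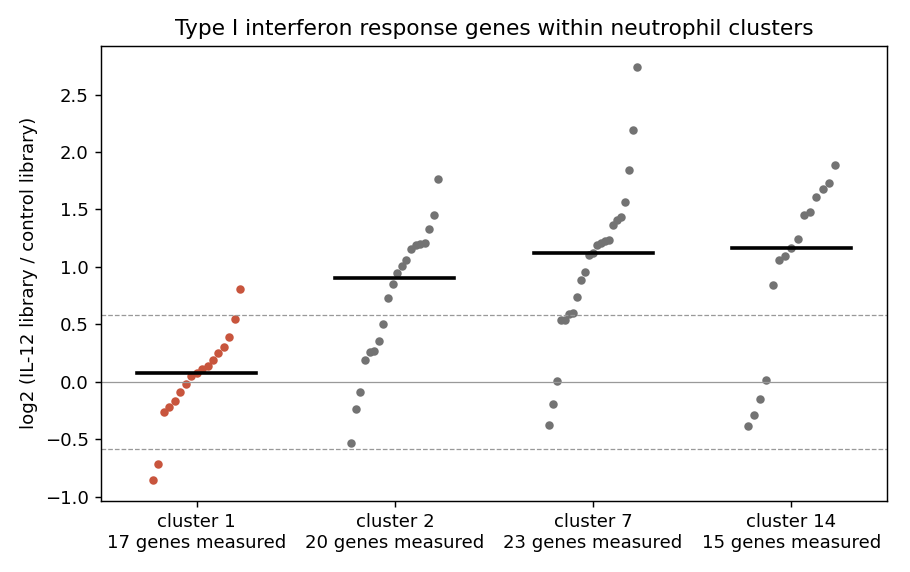
Log2 ratio of IL-12 to control levels for each measured gene of the type I interferon list (points) within clusters 1, 2, 7 and 14, with the median as a black bar and 1.5-fold as dashed lines. The median is 0.08 in cluster 1 and 0.90, 1.12 and 1.16 in the other 3 clusters.

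Other groups within cluster 1 were mixed, and many of the shares lay near the 12.2% higher and 20.9% lower of all genes. The tumour-associated neutrophil list had 6 of 13 higher and 1 lower, the glycolysis and hypoxia list 7 of 21 higher and 3 lower, and the chemokine list 3 of 8 higher and 2 lower. Specific granule genes had 5 of 10 lower and 1 higher, gelatinase and secretory granule genes 5 of 12 lower and 1 higher, and azurophil granule genes 2 of 2 higher. Without shared barcodes these 3 lists had 4 of 10 lower, 4 of 12 lower and 1 of 2 higher, and the log2 ratios of Ngp and Ltf were -0.82 and -0.30 in place of -1.99 and -1.48. Chemoattractant and growth factor receptors had 5 of 14 lower and 1 higher, adhesion genes 4 of 11 lower, and the maturation list 3 of 17 lower and 2 higher. The TNF and NF-kB list had 5 of 15 lower and 2 higher, the IL-1 list 3 of 9 higher and 1 lower, and the survival list 4 of 17 lower and 1 higher. The immediate early list had 3 of 17 higher and 1 lower, the heat shock list 2 of 7 higher, the suppressor list 2 of 17 higher and 1 lower, and the iron list 3 of 6 lower and 1 higher. In the stefin list 1 of 9 was higher and 2 lower, in the S100 list 1 of 5 higher, and in the proliferation list 1 of 4 higher. In the NADPH oxidase list 1 of 7 was higher and 1 lower. Lipid mediator genes had 1 of 6 lower, extracellular trap genes 0 of 4 either way, and lectin and Fc receptor genes 2 of 19 each way.

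The genes that varied most among members included calprotectin subunits and chemokines in both libraries. With each cell thinned to 1000 UMIs, which left 1216 control and 138 IL-12 members, the Fano factor (variance over mean, about 1 for a transcript spread evenly) had a median of 1.10 and 0.993 over measured genes. In control it was largest for S100a8 (31.0), Ccl4 (30.04), Cxcl2 (28.3), S100a9 (28.2), the ferritin chain Fth1 (18.2), Wfdc17 (15.8), Ccl3 (15.3), Saa3 (15.3), Cstdc5 (14.7) and Cxcl3 (12.7). In IL-12 the largest were Ccl4 (88.5), Cxcl2 (34.5), Ccl3 (33.2), S100a9 (32.9), S100a8 (27.8) and Fth1 (22.4), followed by Tnf (16.4), Spp1 (15.1), Cxcl1 (11.9) and Saa3 (11.8). Of the stefin-type genes, Cstdc5 ranked among the 10 most variable in control and none did in IL-12. The median control member had 5 UMIs of Cstdc4, and percentile 90 was 43.

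Across the 1216 thinned control members, which come from 1 library and 1 depth, Cstdc5 and Stfa2 correlated at r = 0.79 and Cstdc4 and Stfa2l1 at 0.55, where shared sequence can move reads between genes. Ccl3 and Ccl4 correlated at 0.54 and Ccl3 and Cxcl2 at 0.52. S100a8 and Cxcl2 correlated at -0.25. Cxcr2 and Cstdc4 correlated at 0.01. These are descriptions across cells, which are not independent replicates.

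Transcripts of other leukocytes were present at low levels and differed between libraries. The T cell list, 6 of 7 genes of which are in the table, all with a UMI, summed to 58.3 CPM (50.1 to 67.4) in control members and 130.5 (96.2 to 173.1) in IL-12 members. Cells not called neutrophils had 1626 and 2996 CPM, and the other IL-12 neutrophil clusters with at least 50 cells had 67.1 to 127.2. The mast cell and basophil list stood at 6.41 CPM (4 of 5 genes, Cpa3 at 0) in control and 133.3 (5 of 5 genes) in IL-12 members. Against the other IL-12 neutrophils, the 2 measured genes of that list were within 1.5-fold in cluster 1 (median log2 ratio 0.21). The macrophage list (7 of 7 genes) was at 557.3 and 834.9 CPM and the monocyte list (3 of 3) at 25.3 and 106.1. CD8 T cell genes were at 10.9 and 54.4 CPM (2 of 2 genes). Red cell genes were at 21.1 CPM in control and at 0 in IL-12 members, where 0 of 160 cells allows a share of cells with a UMI of up to 1.88% (3 counts). Lists for CD4 T cells, NK cells, B cells, dendritic cells, tumour epithelium and fibroblasts each lay between 0.320 and 10.9 CPM, and Siglecf, the 1 eosinophil gene in the table, at 21.5 and 10.9 CPM. The part of these transcripts in the differences above was not tested as a cause. Without the 205 control and 42 IL-12 members that had a UMI of a T cell receptor, CD3 or CD8 gene, 319 genes were higher and 737 lower in IL-12, and the type I interferon list had 2 higher and 2 lower of 18.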

How the data were processed

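The data are 10x 5′ gene expression libraries of sorted CD45+ cells, 1 per treatment. Per the submitters' processing notes, Cell Ranger 2.1.0, STAR 2.6.1, Partek, without a version, and the mm10 build were used. The authors deposited tables of cells by 11407 genes with their cluster and class columns; as deposited by the authors, the values are log2 of counts per 1000000 plus 1, a scale read from the values because no header states how they were made. UMIs were recovered by undoing the log2 and taking a cell's smallest value above 0 as 1 UMI; all but 3 of 4251108 control and 5 of 13883686 IL-12 values were whole within 0.1. The authors' T cell receptor table was not used here.

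Computation used Python 3.11.15, numpy 2.4.6 and scipy 1.17.1, and igraph 0.11.9 with leidenalg 0.10.2 for clusters made here (2000 variable genes, 30 components, 15 neighbours, resolution 0.5). Ratios carry a pseudocount of 1 CPM; shares have exact Clopper-Pearson intervals and levels and folds exact Poisson ones. The interval code for ratios was tested on simulated counts. The thinning code was checked on the recovered UMIs of control members, against the sums expected per gene. With 1 library per treatment, no count model was fitted. Floors for a count of 0 are 3 counts.

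Named genes are the markers; the 15 highest and 10 lowest in both libraries against other neutrophils, by the smaller of the 2 ratios; the 12 highest and 12 lowest between libraries; the 10 most variable per library; and up to 5 per gene list by level. Receptor, immunoglobulin, mitochondrial, ribosomal protein and unnamed genes were left out of ranks, and 1 gene among the lowest is not reported here. Further list members, and the genes of comparisons with single clusters (from the 8 highest and 8 lowest each), were chosen after their values were seen. The members and lists were chosen with earlier results of these data known. All 163 named genes matched RefSeq and GENCODE; 30 had over 10 percent of their 60-base stretches in another gene.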

Additional observations from a re-analysis of the deposited data

Results flagged for a closer look

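For 5 genes the IL-12 and control libraries lay in opposite order in cluster 1 and in another neutrophil cluster. With 1 library per treatment, no such difference between clusters was tested. The log2 ratio of Cxcl10 was -2.96 in cluster 1 and 2.34, 0.87 and 3.10 in clusters 2, 7 and 14. In cluster 1 it rested on 286 control UMIs in 68 of 1260 members and 4 IL-12 UMIs in 4 of 160. Ngp was at -1.99 in cluster 1 and 1.45 in cluster 14, and Ltf at -1.48 and 2.03. Without shared barcodes, which takes out the control member with the most UMIs, the cluster 1 ratios of Ngp and Ltf were -0.82 and -0.30. Hp, haptoglobin, was at -1.03 in cluster 1 and 0.67 in cluster 14. Hsp90aa1, a heat shock chaperone, was at 0.94 in cluster 1 and -0.93 in cluster 2, and 45.5% of its 60-base stretches occur in another gene.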

How the results depend on the processing

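The share of cluster 1 was 48.7% of control neutrophils without the 5 percent deepest cells, and 73.0% of control and 5.77% of IL-12 neutrophils with clusters made here. Against the other neutrophils, 64 genes were higher and 273 lower in control with a pseudocount of 10 CPM, 60 were higher without cluster 14, and 296 were lower after thinning to 1000 UMIs. Thinning gave 435 higher in IL-12. Between libraries it gave 216 higher and 393 lower. With no filter on low counts, the counts were 673 higher and 1688 lower in control, 2710 and 2629 in IL-12, and 2220 and 3095 between libraries. Fewer genes are measured after thinning and more without the filter. The other 44 of 60 recomputed shares and counts stayed within 1.5 times the reported count or inside the counting interval, but with the median set to 0 the calls between libraries turned from 36.9% to 52.9% higher. Of 163 named genes under 6 alternatives each, 36 ratios moved beyond their counting interval with the median set to 0, 23 with a mean over cells, 19 without the member of each library that held the most of the gene's UMIs (chosen after seeing the data), 11 without shared barcodes and 10 without the deepest cells; none moved with scaling to the table's genes. No paired analysis was possible because each treatment has 1 library. With 367727 UMIs in the IL-12 members, a gene near 10 CPM there rests on about 4 UMIs.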
